A study of Nicotiana benthamiana with 12 samples.

Results

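The response of Nicotiana benthamiana seedlings to abscisic acid (ABA) was compared between wild type (WT) and a line labelled pent1. For each gene the quantity was the change with ABA in pent1 minus the change with ABA in WT, on the log2 scale. A positive difference thus means a response that was more upward in pent1, and a negative difference one that was more downward. The genes were those that passed a filter on low counts across all 12 libraries, 34026 of the 45796 gene IDs in the count tables. The other 11770 were not tested, and 4139 of them had no count in any library.

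N. benthamiana is a relative of tobacco that is widely used as a laboratory plant. Both genotypes are given as LAB strain, and RNA came from whole seedlings. The 4 groups were WT mock, WT ABA, pent1 mock and pent1 ABA, each with 3 libraries described as independent biological replicates. Seedlings were moved from plates into liquid Murashige and Skoog medium 10 days after germination and stayed there for 10 days. The medium was then renewed with 0.1% DMSO as mock or with 10 µM ABA, and seedlings were collected after 3 h. The sources used here give neither the gene altered in pent1 nor the number of lines or seedlings behind a library, so the genotype labels were not checked on the altered gene. The files do not pair the gene IDs with names or products, so genes are given by ID and no tissue marker could be looked up.

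ABA is the plant hormone of the response to drought and of seed dormancy. In the core pathway, known best from Arabidopsis, receptors of the PYR/PYL family bind ABA and then inhibit PP2C phosphatases. This releases SnRK2 kinases, which phosphorylate bZIP transcription factors that bind ABA-responsive promoters. Genes raised by the hormone typically encode protective proteins such as dehydrins and other late embryogenesis abundant proteins, and the PP2C phosphatases that limit the signal. A difference between the responses of 2 genotypes can lie in the level under mock, in the level under ABA or in both, so each was examined.

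Libraries held 18199288 to 18758918 counts in WT and 19371555 to 19678708 in pent1. The biological coefficient of variation was 0.129 in pent1 and 0.0630 in WT, so replicates lay further apart in pent1. By root mean square log2 distance from the group mean, replicate 3 of pent1 ABA was the most distant library at 0.27, and the other 11 lay at 0.17 to 0.23. Counts of the genotypes come in separate tables and no batch is labelled, so genotype cannot be told apart from other differences between the tables. A shift shared by the mock and ABA libraries of a genotype drops out of the difference of responses. Any other difference between the tables that alters the response to ABA stays in it, and genotype cannot be told apart from that.

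A difference of responses was called for 1145 genes, 3.37% of those tested, at an adjusted p under 0.05 (edgeR's quasi-likelihood test, Benjamini-Hochberg adjustment over all 34026 genes). It was negative for 737 genes (2.17%) and positive for 408 (1.20%). The median size was also larger for the negative differences, with a median of -0.85 and quartiles of -1.14 and -0.67, against a median of 0.66 and quartiles of 0.57 and 0.84 for the positive ones. Over all tested genes the median difference was 0.00, with quartiles of -0.25 and 0.23. At least 2-fold differences were found for 257 of the negative and 62 of the positive genes, and at least 4-fold differences for 34 and 13. The smallest difference called was 0.44, and the median standard error of a called gene was 0.18 for negative and 0.16 for positive differences.

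The number of calls depended on single libraries. Without 1 of the 6 WT libraries it was 355 to 516. Leaving out pent1 mock replicate 1, 2 or 3 gave 744, 1761 or 578 calls. Leaving out pent1 ABA replicate 1, 2 or 3 gave 734, 502 or 5334. In each of the 12 fits negative calls were the majority, at 53.7% to 81.9% of the calls. The split also moved with scaling, from 64.4% negative to 52.0% (567 positive, 614 negative) with upper-quartile factors and 86.1% (196 positive, 1211 negative) with library-size scaling alone.

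**Figure D1:**
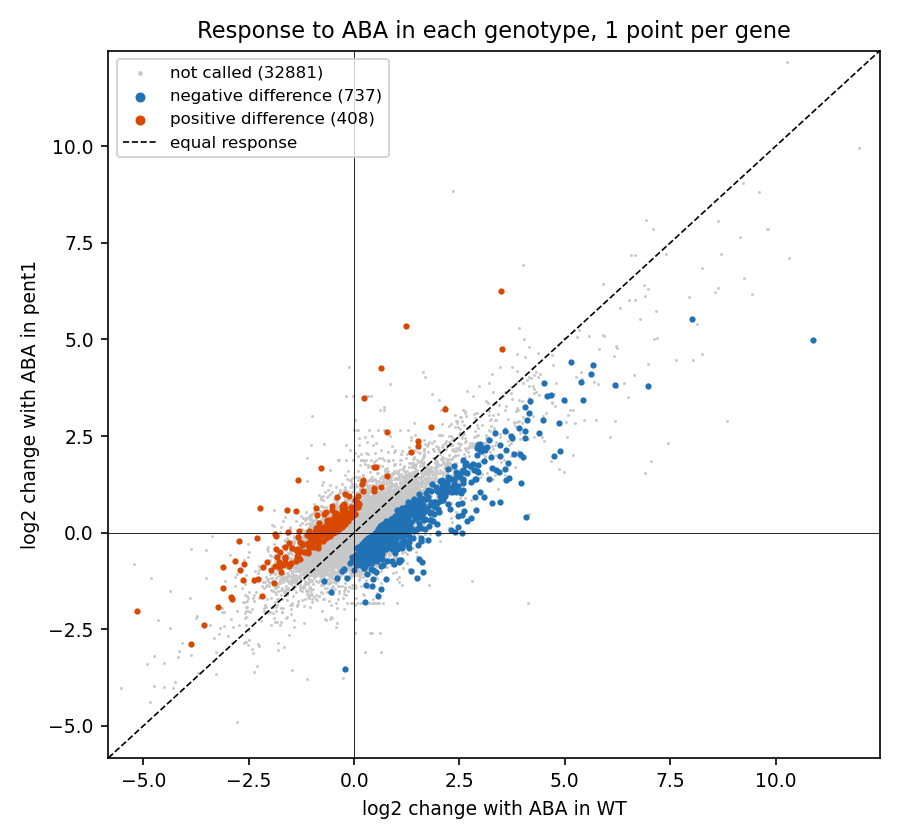
Each point is a gene tested on all 12 libraries, with its log2 change with ABA in WT on the x axis and in pent1 on the y axis. The dashed line marks equal responses. The 737 genes with a negative difference (blue) lie below it, mostly to the right of 0, and the 408 with a positive difference (orange) lie above it, mostly to the left of 0.

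To read the differences library by library, a response was computed for every pairing of an ABA with a mock library of the same genotype, on the scale of log2(CPM + 0.5), where CPM is the count relative to the scaled library size. In 399 of the 408 positive and 704 of the 737 negative genes, the responses of the genotypes did not overlap: the lowest in one genotype lay above the highest in the other. Over all tested genes this held for 10.9%, with 5.03% positive and 5.84% negative. Because the same libraries gave the calls, these counts describe the called genes and are no further test.

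The called genes were then sorted by whether ABA changed them in each genotype, tested on its own 6 libraries. ABA changed 36.0% of tested genes in WT (18.6% higher, 17.5% lower) and 11.1% in pent1 (7.24% higher, 3.84% lower). The biological coefficient of variation was larger in pent1 (0.129 against 0.0630 in WT), which makes calls harder to reach there. A missing call in pent1 thus does not show a missing response. Of the 1145 genes, 1034 were called in WT. In 1014 of these the response in pent1 was weaker than in WT or went the other way, and in 20 it was stronger. Because the WT call and the difference share libraries, weaker responses are favoured by the choice. The share of weaker or opposite responses was 96.5% to 99.1% in the 12 fits without 1 library.

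The largest class was 429 genes that ABA raised in WT and that were not called in pent1. They were 10.9% of all genes with this combination of calls. Their median log2 change was 0.72 in WT and -0.10 in pent1. Relative to WT mock, the median level of the class was 0.69, 0.70 and 0.68 in the 3 WT ABA libraries. It was 0.62, 0.54 and 0.67 in pent1 mock and 0.52, 0.59 and 0.65 in pent1 ABA. By its median, the class thus stood at similar levels in both pent1 groups, whose libraries overlapped. Both groups lay far above WT mock and just below WT ABA. Gene by gene, 298 stood higher and 12 lower in pent1 than in WT under mock. Under ABA, 109 stood higher and 170 lower. Over all tested genes, 17.4% were higher and 15.4% lower in pent1 under mock, and 16.7% and 14.6% under ABA. A choice by a rise in WT and a negative difference favours pent1 being higher under mock or lower under ABA. The counts thus describe the class and are not independent of the call.

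A further 216 genes were raised in both genotypes but less in pent1. These were among the strong responders, with a median level of 1.98, 2.08 and 1.99 in the WT ABA libraries on the same scale. In pent1 they stood at 0.72, 0.78 and 0.77 under mock and at 2.01, 1.95 and 1.92 under ABA. The median of the class reached similar levels under ABA, where the libraries of the genotypes overlapped, and differed in the level it started from. In the mock libraries, 177 of the 231 called genes that were raised in both genotypes stood higher in pent1 than in WT, and 14 stood lower. With ABA, 50 of the 231 stood higher in pent1 and 77 lower, so a similar median did not mean equal levels gene by gene. The 231 were 11.1% of all genes raised in both genotypes. Over all tested genes, 17.4% were higher and 15.4% lower in pent1 under mock, and 16.7% and 14.6% with ABA. A choice by a smaller rise in pent1 favours a higher level there under mock.

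In 23 genes ABA raised the level in WT and lowered it in pent1. Each of the 23 genes with these opposite calls had a called difference, which opposite calls on the same libraries nearly fix in advance. Their median log2 change was 0.48 in WT and -0.52 in pent1. Median levels were 0.40, 0.45 and 0.49 in WT ABA, 1.10, 0.97 and 1.09 in pent1 mock and 0.40, 0.45 and 0.40 in pent1 ABA. From opposite sides, the class median came to similar levels under ABA in both genotypes. Gene by gene, 19 of the 23 were higher in pent1 under mock. Under ABA, 9 of the 23 were higher in pent1 and 8 lower. Of all tested genes, 17.4% were higher in pent1 under mock. Opposite calls of this kind favour a higher pent1 level under mock or a lower one under ABA.

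**Figure D2:**
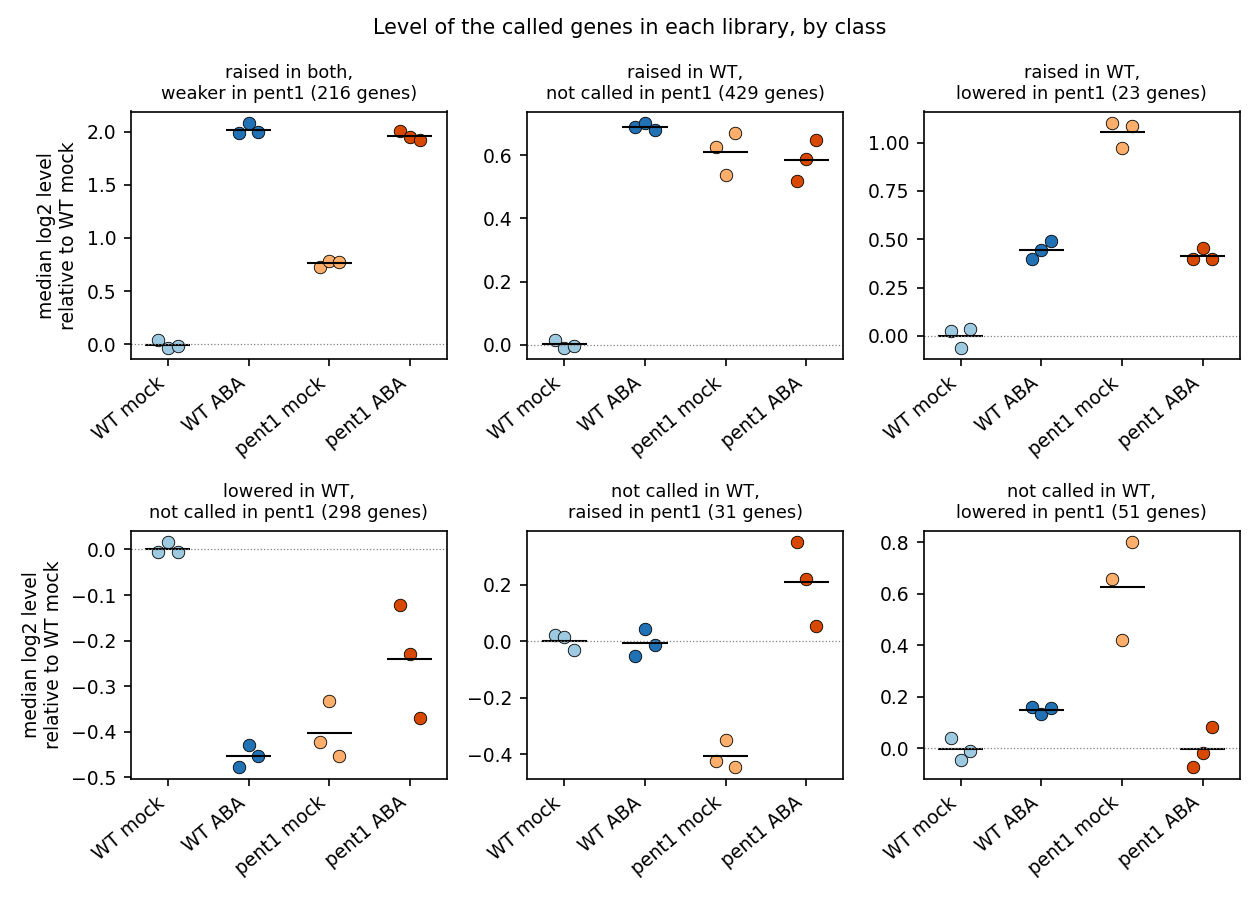
Each panel shows a class of called genes, with the median log2 level relative to WT mock on the y axis for each of the 12 libraries (points) and the mean of the 3 libraries (lines). In the 3 classes of the upper row, pent1 mock lies well above WT mock and pent1 ABA lies near WT ABA, for example at 1.92 to 2.01 against 1.98 to 2.08 in the 216 genes raised in both.

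Among genes lowered by ABA in WT, 298 were not called in pent1, 6.13% of the genes with these calls. Their median change was small in WT, at -0.46, and 0.16 in pent1. Median levels were -0.48, -0.43 and -0.45 in WT ABA and -0.42, -0.33 and -0.45 in pent1 mock. In pent1 ABA they were -0.12, -0.23 and -0.37, the value nearest to pent1 mock belonging to replicate 3. Without that library the positive calls rose from 408 to 2470, and whether it differs for a technical reason was not tested. Another 40 genes were lowered in both genotypes but less in pent1, with median levels of -1.64, -1.57 and -1.68 in WT ABA and -1.14, -1.20 and -1.23 in pent1 ABA, which did not overlap. In all, 44 of the genes lowered in both genotypes had a called difference (5.06%).

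Responses that were called in pent1 and not in WT made up a small part of the called genes, since few tested genes had such calls. In 31 genes, 10.5% of the 296 with these calls, ABA raised the level in pent1, with a median change of 0.65 against -0.02 in WT. They stood below WT mock in the pent1 mock libraries (-0.43, -0.35 and -0.45) and above it with ABA (0.35, 0.22 and 0.06). In 51 genes, 14.4% of the 354 with these calls, ABA lowered the level in pent1, with a median change of -0.67 against 0.18 in WT. These stood above WT mock in pent1 mock (0.66, 0.42 and 0.80) and near it with ABA (-0.07, -0.02 and 0.08). A missing call in WT does not show that WT did not respond. A further 25 genes had a called difference with no ABA call in either genotype (0.124% of such genes), and 6 genes were lowered in WT and raised in pent1. These sizes depended on the fit. With ABA calls from all 12 libraries, which share 1 spread, 75 called genes were raised and 96 lowered in pent1 without a WT call. In that fit 40 were raised in WT and lowered in pent1, 23 the reverse, and 329 were raised in WT and not called in pent1.

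Among the 1034 genes called in WT, responses that were stronger in pent1 were few. They comprised 15 genes raised in both genotypes, 4 lowered in both and 1 gene that was raised in WT and not tested for ABA in pent1 for lack of counts. In the 15 genes the median level was 1.22, 1.25 and 1.17 in WT ABA and 1.30, 1.09 and 0.87 in pent1 ABA. In pent1 mock it was -0.53, -0.53 and -0.82. Here too the median levels under ABA overlapped, and those under mock were apart. In the 4 genes the order was reversed. Their pent1 mock libraries (0.06, -0.01 and 0.20) lay near WT mock, and their pent1 ABA libraries (-1.29, -0.90 and -1.32) lay below WT ABA (-0.49, -0.47 and -0.46).

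Levels of the called genes were compared between the genotypes under each treatment on all 12 libraries. Of all tested genes, 17.4% were higher and 15.4% lower in pent1 under mock (32.8% together). With ABA these shares were 16.7% and 14.6% (31.3% together). Of the 737 genes with a negative difference, 532 (72.2%) were higher in pent1 under mock and 21 were lower, whereas under ABA 176 (23.9%) were higher and 286 (38.8%) lower. Of the 408 genes with a positive difference, 269 (65.9%) were lower in pent1 under mock and 7 were higher. With ABA, 184 of them (45.1%) stood higher and 21 lower. A negative difference requires pent1 to be relatively higher under mock or relatively lower under ABA, so these counts show where the difference lay and are not independent of the call.

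Most called genes differed between the genotypes under 1 treatment alone. Among negative genes, 273 (37.0%) differed only under mock and 182 (24.7%) only under ABA. Another 197 (26.7%) differed the same way under both treatments and 83 (11.3%) in opposite ways. Among positive genes, 203 (49.8%) differed only under mock, 132 (32.4%) only under ABA, 28 the same way under both and 45 in opposite ways. Only 2 negative genes were called under neither treatment. "Only" refers here to calls under the threshold, not to a test between treatments. Over all called genes, 72.4% differed under mock, and without 1 library this share was 57.6% to 83.7%.

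The share of genes called grew with the size of the response. Of 573 genes raised at least 4-fold in WT (log2 change of 2 or more), 25.3% had a called difference, 142 negative and 3 positive, and the median difference of the whole group was -0.90. Of 147 genes lowered at least 4-fold in WT, 13.6% were called, each of them positive, with a median difference of 0.88 in the group. These groups are chosen on WT libraries that enter the difference, which pushes the medians in the directions found.

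Choosing genes by their response in pent1 pushes the other way. The 411 genes raised at least 4-fold in pent1 nevertheless had a median difference of -0.30, with 42 negative and 11 positive calls (12.9% called). For genes with a log2 change of 1 to 2 in pent1 the median was -0.02, with 80 negative and 11 positive calls among 908. For genes lowered at least 4-fold in pent1 the median was -0.23, so there the choice and the median had the same direction, and 4 of 101 were called.

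**Figure D3:**
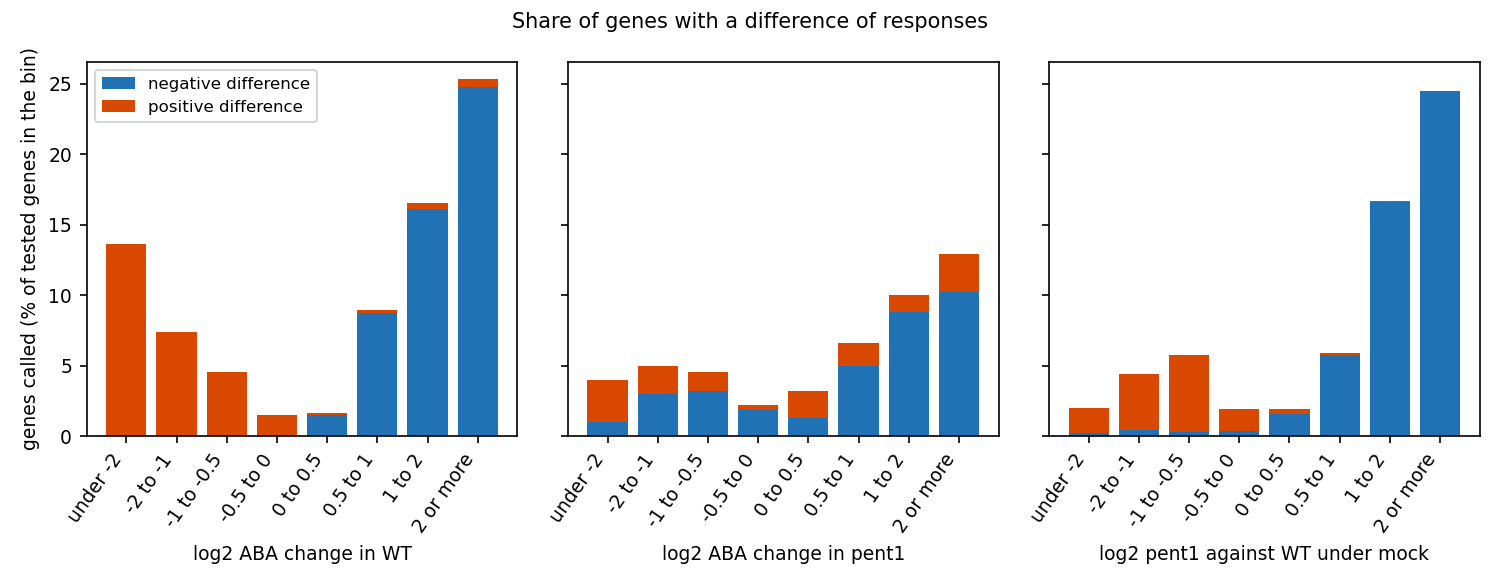
Bars give the percentage of tested genes with a called difference, negative in blue and positive in orange, in bins of the log2 change with ABA in WT (left), of the log2 change with ABA in pent1 (middle) and of the log2 level in pent1 relative to WT under mock (right). The bars are highest for genes raised at least 4-fold in WT (25.3%) and for genes at least 4-fold higher in pent1 under mock (24.5%). The bins use libraries that also enter the difference.

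Under mock, 233 genes stood at least 4-fold higher in pent1, of which 57 were called, each with a negative difference, and the median difference of the 233 was -1.12. Among 406 genes at least 4-fold lower in pent1 under mock, 8 were called (1.97%). The median difference of these 406 genes was 0.32. Both groups are chosen on mock libraries that enter the difference, which pushes the signs and medians in the directions found. A low share of calls does not show equal responses.

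Individual genes were named by a rule that asked for a called difference, a sufficient mean level, counts in every group and responses that did not overlap. It left 387 positive and 682 negative candidates, of which the 2 with the largest differences in each direction are described. NbL10g24460 had the largest positive difference. It stood at 14.4, 10.4 and 12.8 CPM in WT mock and at 29.9, 30.1 and 28.4 CPM in WT ABA. In pent1 it stood at 0.467, 0.256 and 0.204 CPM under mock (10, 5 and 4 counts) and at 13.5, 12.9 and 12.9 CPM with ABA. Its libraries fell into separate ranges except that pent1 ABA lay within the range of WT mock, so that with ABA the pent1 seedlings came to the level of untreated WT. The ratio of mean CPM with ABA to that under mock was 2.36 in WT and 42.3 in pent1. The gain in mean CPM was nevertheless larger in WT, from 12.5 to 29.5 CPM, than in pent1, from 0.309 to 13.1 CPM. Its fitted log2 difference was 4.12 (SE 0.26, Benjamini-Hochberg adjusted p = 1.64e-07 by edgeR's quasi-likelihood test).

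NbL11g19580 was next among the candidates of the rule, not among all called genes. It was low under mock in both genotypes, with 6, 8 and 10 counts in WT and 3, 4 and 0 in pent1. With ABA it reached 4.48, 4.30 and 5.86 CPM in WT and 11.2, 8.57 and 8.07 CPM in pent1. The pent1 ABA libraries lay above all WT ABA libraries, and the mock libraries differed by a few counts. Its difference was 2.77 on the log2 scale (SE 0.62, Benjamini-Hochberg adjusted p = 0.0226 by edgeR's quasi-likelihood test). The call was lost without WT mock replicate 2 (adjusted p = 0.064) or 3 (0.0829) or pent1 mock replicate 3 (0.0538), within a range of 0.00271 to 0.199 over the alternatives.

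Among the candidates of the rule, NbL15g14570 and NbL09g21650 had the most negative differences. NbL15g14570 stood at 0.326, 0.654 and 0.53 CPM in WT mock and rose to 68.0, 63.8 and 62.2 CPM with ABA. In pent1 it stood at 3.36, 3.17 and 1.89 CPM under mock and at 51.1, 34.3 and 32.1 CPM with ABA. It was thus higher in every pent1 mock library and lower in every pent1 ABA library than in WT. Both treatments added to the difference, and mock added more. The fitted log2 level in pent1 relative to WT was 2.47 under mock and -0.72 under ABA. Under mock the WT libraries held only 6, 12 and 10 counts. On the log2 scale the difference of responses was -3.19 (SE 0.40, Benjamini-Hochberg adjusted p = 0.000974 by the same test of edgeR).

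NbL09g21650 followed the same pattern at a lower level. Its WT libraries held 3, 11 and 2 counts under mock and reached 7.86, 7.54 and 8.13 CPM with ABA. In pent1 it stood at 1.31, 0.716 and 1.38 CPM under mock and at 3.85, 4.21 and 5.54 CPM with ABA. No pent1 library overlapped a WT library of the same treatment. Its log2 difference of -2.75 had an SE of 0.48 (Benjamini-Hochberg adjusted p = 0.00517 by edgeR's quasi-likelihood test).

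**Figure D4:**
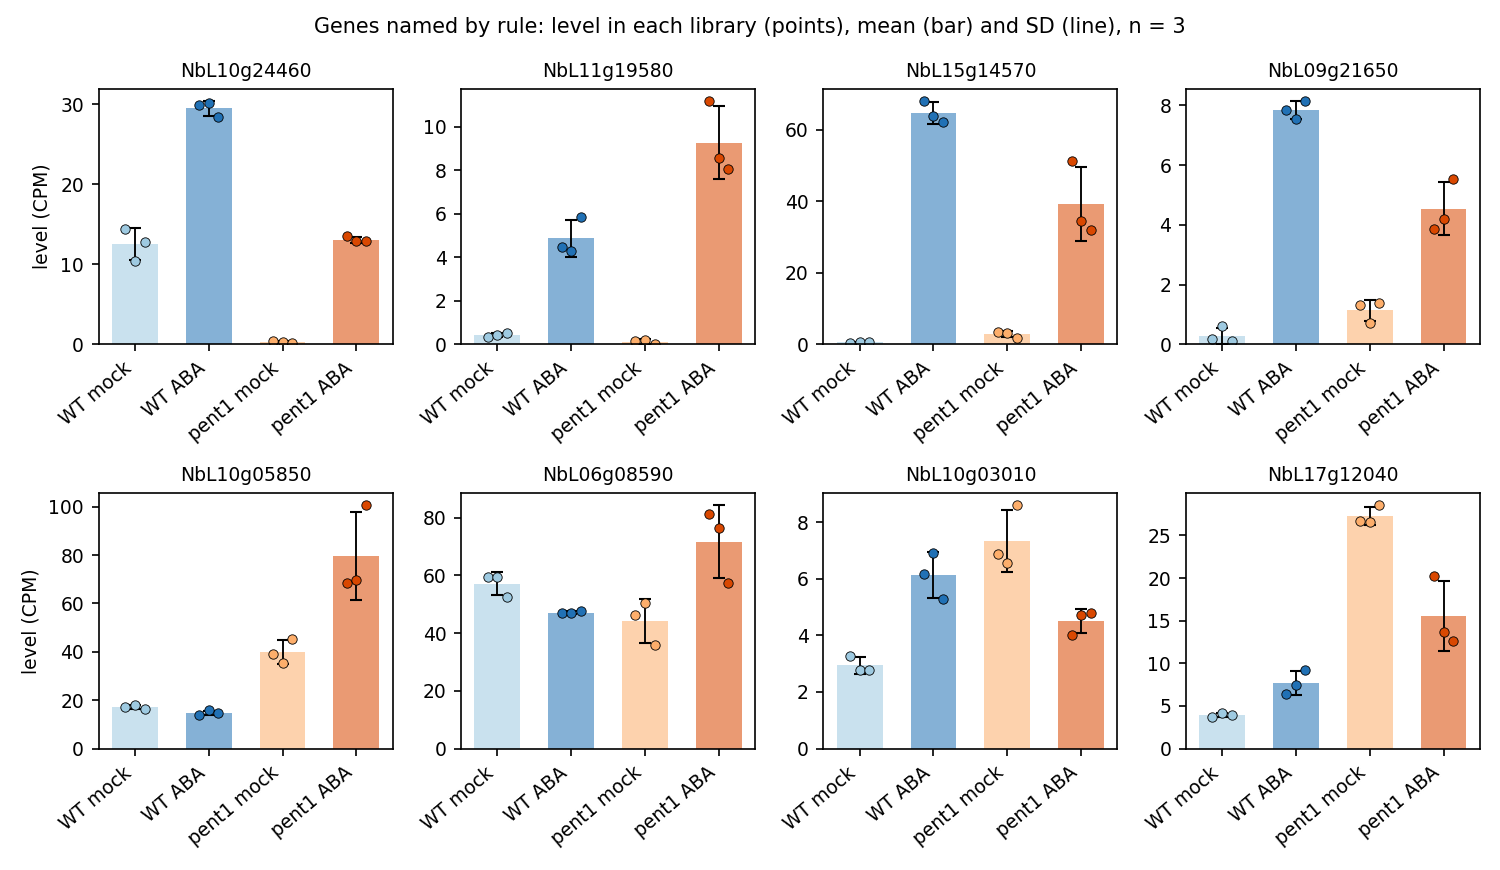
Each panel shows 1 gene, with its level in CPM on the y axis in the 3 libraries of each group (points), their mean (bars) and SD (lines). The upper row holds the genes with the largest differences among the candidates of the naming rule and the lower row genes with opposite responses. In NbL17g12040, for example, pent1 mock lies at 26.6 to 28.5 CPM and every other library lower.

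Opposite responses were called for 29 genes, and 28 of them met the level asked for by the rule, 5 with a positive and 23 with a negative difference. The 2 most negative were NbL10g03010 and NbL17g12040. NbL10g03010 rose in WT from 3.26, 2.78 and 2.76 CPM to 6.17, 6.90 and 5.29 CPM, and fell in pent1 from 6.86, 6.54 and 8.59 CPM to 4.01, 4.72 and 4.79 CPM. With ABA the genotypes thus crossed over, and neither treatment showed overlap between them. By edgeR's quasi-likelihood test the log2 difference was -1.76 (SE 0.22, Benjamini-Hochberg adjusted p = 0.000391).

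NbL17g12040 rose in WT from 3.75, 4.20 and 3.98 CPM to 6.39, 7.43 and 9.21 CPM. In pent1 it fell from 26.7, 26.6 and 28.5 CPM to 20.2, 13.7 and 12.6 CPM. It remained higher in pent1 than in WT under both treatments, and the gap narrowed with ABA. The difference of responses was -1.76 on the log2 scale (SE 0.23, Benjamini-Hochberg adjusted p = 0.000761 by edgeR's quasi-likelihood test).

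Of the 5 genes that fell in WT and rose in pent1, NbL10g05850 and NbL06g08590 had the largest differences. NbL10g05850 fell slightly in WT, from 17.3, 17.9 and 16.5 CPM to 13.97, 15.8 and 14.7 CPM. In pent1 it rose from 39.1, 35.4 and 45.2 CPM to 68.6, 69.8 and 100.6 CPM. Its pent1 libraries stood above all WT libraries, and those with ABA above those with mock. The quasi-likelihood test of edgeR gave a log2 difference of 1.21 (SE 0.19, Benjamini-Hochberg adjusted p = 0.00261).

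NbL06g08590 fell in WT from 59.6, 59.2 and 52.4 CPM to 46.8, 46.8 and 47.7 CPM, and rose in pent1 from 46.1, 50.5 and 35.7 CPM to 81.2, 76.4 and 57.4 CPM. Replicate 3 gave the lowest value in both pent1 groups, and the genotypes did not overlap under either treatment. The same test gave a log2 difference of 0.98 (SE 0.18, Benjamini-Hochberg adjusted p = 0.00853 by edgeR). Of the 8 named genes, 7 were called in each of the 12 fits without 1 library, NbL11g19580 being the exception. These fits share libraries with the choice of the genes, so they are no independent test. When differences had to exceed 1.5-fold, NbL11g19580, NbL09g21650, NbL10g05850 and NbL06g08590 lost their call.

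Because the total number of calls moved so much, the genes called with the same sign in each of these 12 fits were counted. There were 268 (23.4% of the calls), 213 negative and 55 positive, with differences of at least 0.61 and 0.63 in size. The choice was made after the counts were seen. Of these genes, 261 were called in WT, of which 258 responded less in pent1 or the other way. By class, 96 were raised in both genotypes, 99 raised in WT and not called in pent1, 34 lowered in WT and not called in pent1, and 12 lowered in both. The opposite responses were kept for 16 of the 23 genes raised in WT and lowered in pent1 and for 4 of the 6 with the reverse.

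In the 213 negative genes the median level relative to WT mock was 1.32, 1.42 and 1.44 in WT ABA, 1.11, 1.16 and 1.15 in pent1 mock and 1.64, 1.52 and 1.59 in pent1 ABA. In pent1 they thus stood high under mock and a little higher still with ABA, and 185 of them were higher in pent1 under mock against 3 lower. Under ABA the 2 directions were even, with 72 higher and 70 lower. In the 55 positive genes the median level was -0.83, -0.80 and -0.83 in WT ABA, -0.48, -0.52 and -0.63 in pent1 mock and -0.37, -0.46 and -0.52 in pent1 ABA. For these genes the ranges of pent1 mock and pent1 ABA overlapped, between WT mock and WT ABA, and 38 were lower in pent1 under mock against 2 higher. With ABA, 29 of the 55 were higher in pent1 and 3 lower. Over all tested genes, 17.4% were higher and 15.4% lower under mock, and 16.7% and 14.6% with ABA. Both sets were chosen by the difference, so these counts are not independent of the call.

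**Figure D5:**
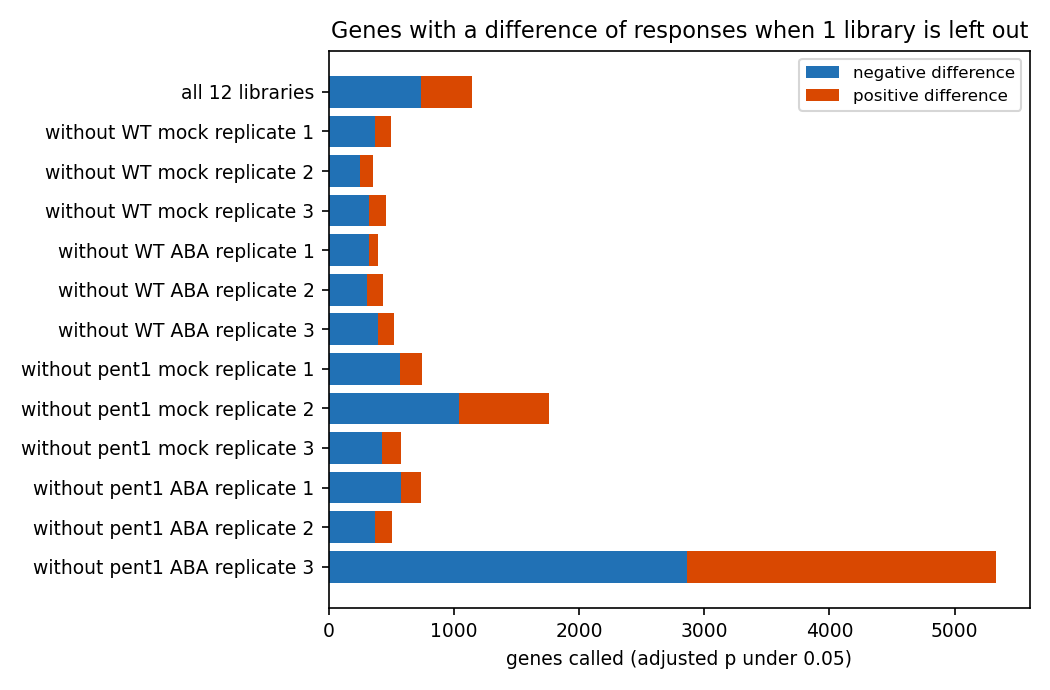
Bars give the number of genes with a called difference of responses, negative in blue and positive in orange, on all 12 libraries and with each library left out. The count runs from 355 without WT mock replicate 2 to 5334 without pent1 ABA replicate 3, and the blue part is the larger in every bar.

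Differences were also read in libraries that had no part in the choice. Genes were called without the 4 libraries of 1 replicate number, and their difference was measured in those 4. Without replicate 1, 242 genes were called, 220 of them (90.9%) had the same sign in the libraries left out, and the median difference in the direction of the call was 0.64 against 1.29 in the fit. Without replicate 3, 2285 were called, 1949 (85.3%) had the same sign, and the medians were 0.34 and 0.79. Without replicate 2 the 22 genes called had the same sign, with medians of 1.74 and 1.90. Among genes not called, 61.1% to 65.6% had the same sign. The differences were thus smaller in the libraries left out than in those that chose them, and the positive calls made without replicate 3 had the same sign in 78.5% of 836 genes and the negative ones in 89.2% of 1449.

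A difference of log2 changes need not be a difference in the amount of transcript gained or lost. Measured as the change in CPM in pent1 minus the change in CPM in WT, the sign was the same for 711 of the 737 negative and 404 of the 408 positive genes. In the other 26 negative and 4 positive genes the sign turned, and 24 of these 30 genes were raised in both genotypes. NbL10g24460, the gene with the largest positive log2 difference, was among the 4. Over all tested genes the sign differed for 6.54%.

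The called genes took a small part of all counts. The 737 negative genes held 1.21%, 1.16% and 1.19% of the counts in WT mock and 2.50%, 2.55% and 2.37% in WT ABA. In pent1 they held 2.11%, 1.97% and 2.10% under mock and 2.31%, 2.32% and 2.43% with ABA. The ranges of the genotypes overlapped with ABA and were far apart under mock. The 408 positive genes held 1.92%, 1.88% and 1.87% in WT mock, 1.43%, 1.48% and 1.38% in WT ABA, 1.49%, 1.44% and 1.32% in pent1 mock and 1.69%, 1.62% and 1.40% in pent1 ABA. For these the pent1 groups overlapped, again through replicate 3 of pent1 ABA.

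Calls were made mostly at medium to high levels. The median average log2 CPM was 4.22 for negative and 4.29 for positive genes, against 3.36 for all tested genes. The share called was 0.573% of 2443 genes with an average log2 CPM under 0, and 5.27% of 9796 genes from 4 to 6. It was 5.34% of 2378 genes from 6 to 8 and 1.5% of 399 genes at 8 or more. Only 3 called genes had a group with 3 or fewer counts in all, for which the fitted difference depends on the prior count. Few counts limit the precision at low levels, so a low share there does not show equal responses.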

How the data were processed

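Whole-number counts per gene, deposited by the authors in 1 table for each genotype, were joined by gene ID, with columns assigned by the sample descriptions. FastQC, cutadapt, STAR and DESeq2 are listed in the submitters' processing notes without versions. Counter, genome build, annotation and use of strand: not given in the sources used here. The species is an allotetraploid, so near-identical copies may share counts.

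The main test was the quasi-likelihood test of edgeR 4.0.16 (R 4.3.3) with robust dispersion, TMM factors and 4 group means. It used the filterByExpr filter (count minimum 10) and Benjamini-Hochberg adjustment at 0.05. On simulated counts with 50 changed genes per fold, it called 18% at 1.5-fold, 56% at 2-fold, 92% at 3-fold and 98% at 4-fold. It also called 6 unchanged genes. The simulation gave all groups the same spread for a gene, so it does not cover the larger spread of pent1. Standard errors follow from the F statistic of the main test. CPM are relative to TMM-scaled library sizes. Alternatives were other scalings and filters, DESeq2 1.42.0, limma-voom (limma 3.58.1), a replicate block, a fold minimum and leaving out each library.

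Named genes were called, had log2 CPM averaging 1 or more, over 3 counts in every group and responses without overlap, and were the 2 highest and 2 lowest differences. Of opposite responses, the 2 highest and 2 lowest were taken without the last 2 conditions. Members and rules were chosen with earlier results of these data known. A chi-square over genes found every pair of replicates to differ beyond sampling noise (2.03 to 16.5 per degree of freedom), so all were kept. Lists of ABA pathway genes were not used because the IDs are not paired with names.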

Additional observations from a re-analysis of the deposited data

Results flagged for a closer look

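A difference between the genotypes' responses to ABA, by the test of the difference itself, was found for 1145 genes. The 8 named genes carry this flag singly, with log2 differences of 4.12 for NbL10g24460, 2.77 for NbL11g19580, -3.19 for NbL15g14570, -2.75 for NbL09g21650, 1.21 for NbL10g05850, 0.98 for NbL06g08590, -1.76 for NbL10g03010 and -1.76 for NbL17g12040.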

How the results depend on the processing

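The count of 1145 genes became 1903 with DESeq2, 3755 with limma-voom and sample quality weights, which let libraries differ in spread, 26 when differences had to exceed 1.5-fold (25 negative), 268 for genes called in all 12 fits without 1 library, and 355 to 5334 over those 12 fits. Other scalings and filters gave 1166 to 1407 calls and the test without robust dispersion 1119, but library-size scaling alone gave 196 positive and 1211 negative calls and upper-quartile scaling 567 and 614, against 408 and 737. DESeq2 kept 94.8% of the 1145 genes, limma-voom 99.9%, library-size scaling alone 81.5%, and 761 genes were called under the main test and 9 other settings. The share of weaker or opposite responses in pent1 was 98.1%, moved to 96.2% with the 1.5-fold minimum, and ranged from 96.5% to 99.1% without 1 library. The share that differed under mock was 72.4%, moved to 64.0% with DESeq2, 60.7% with limma-voom and 96.2% with the 1.5-fold minimum, and ranged from 57.6% to 83.7% without 1 library. In libraries left out, the median difference was 0.64, 1.74 and 0.34 for replicates 1, 2 and 3. For the same genes it was 1.29, 1.90 and 0.79 in the fits that chose them. The median of 0.76 in the main fit is over other sets of genes, the 1145 calls. The causes of these moves were not tested, though leaving out a library also leaves fewer samples. Of 176 values of named genes under alternatives, 169 kept their call and 7 lost it, with no change of sign.

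The replicate number as a replicate block gave 1747 calls, 68.9% of which differed under mock. Deviations of same-numbered libraries correlated at -0.04 to 0.17, over 0.1 in 3 of 18 pairs, and those of other pairs at -0.19 to 0.13. The 3 were WT mock 3 with pent1 ABA 3 (0.171), WT mock 1 with pent1 ABA 1 (0.168) and WT ABA 3 with pent1 ABA 3 (0.168), above every other pair. Of 12 libraries, 5 correlated best with a library of their own number. These values do not settle whether the numbers pair the libraries. The labels name no shared batch, so the main test left the numbers out. Precision at low levels was limited by depth, and the difference of responses, which sums the error of 4 groups, has a median standard error of 0.19 over all tested genes.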

Other observations

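The called genes were spread over the ID series. In the 20 series of IDs from NbL00 to NbL19, 2.45% (NbL06) to 4.27% (NbL00, 5 of 117 genes) of tested genes had a called difference. Negative calls outnumbered positive ones in 18 of these series, the exceptions being NbL07 with 25 positive and 23 negative and NbL09 with 34 and 33. NbL06 held 32 negative and 6 positive calls. Among called genes, 98 (8.56%) had a called neighbour next to them in the order of tested IDs, in 50 pairs of which 35 had the same direction. The longest run was 3 genes. The share that calls placed at random would give was not computed, so these counts do not show clustering.

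At the threshold, the 100 called genes with the highest adjusted p had a median difference of 0.62 in size, and the 100 next genes outside it 0.61. Of the former 50 were negative and of the latter 66. At an unadjusted p under 0.05 there were 7328 genes (21.5%).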
